A study of Drosophila melanogaster with 8 samples.

Results

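Transcription and chromatin regulator genes, 6 in number, were followed in heads of adult Drosophila melanogaster after 1 h of warming. They were mbf1, CrebA, DMAP1, Saf6, mod(mdg4) and atos, out of 352 genes whose probes could be named. Of the array's 32162 probes, 11 could be named for these 6 genes. Probes left without a gene numbered 31744, and others of the 6 genes may be among them. The 11 probes were found through the array's target identifiers, a RefSeq accession or a cDNA clone name of each gene. The 6 genes had been picked for their signal in the warmed flies compared with the controls, and that contrast is described here for them with no test.

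Both groups carried the genotype w, elav-GAL4/+; UAS-dTrpA1/+ and were reared at 23 °C. The elav-GAL4 driver is active in neurons, and dTrpA1 is a cation channel that opens with warmth, so that warming depolarises the neurons that carry it. The 4 activated_31C samples were held at 31 °C for 1 h and their heads were taken directly afterwards, while the 4 control_23C samples stayed at 23 °C. Each sample pooled 20 heads, with males and females together, and its Cy3-labelled RNA was hybridised to a 1-colour Agilent array of its own. The study asked which transcripts respond to neural activity. With the channel in both groups and no warmed flies that lack it, warmth and neural activity cannot be told apart. Slide and treatment cannot be told apart either, because each group filled 1 slide of its own. The driver acts in neurons but the RNA came from whole heads, in which fewer cells of a type and less RNA per cell cannot be told apart.

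Transcription factors bind particular DNA sequences near genes, and coactivators link them to the general transcription machinery at the promoter. Chromatin complexes add or remove marks on histones and exchange histones, and insulator proteins organise the chromatin fibre into separate domains. In neurons, activity is known to switch on a first wave of transcription factor genes within minutes, and heat separately sets off the heat shock response.

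Of the 6 genes, 2 had higher and 4 had lower signal in activated_31C. The signal of mbf1 was 3.22-fold higher in activated_31C by one probe and 3.32-fold higher by the other. CrebA was 1.34-fold higher. DMAP1 and Saf6 were lower by 1.63-fold and 1.62-fold, mod(mdg4) by 1.52-fold and 1.57-fold on its 2 probes, and atos by 1.59-fold to 1.71-fold on its 3 probes. All levels below are on a log2 scale, as the processed signal minus the array's own 75th percentile, and a difference is activated_31C minus control_23C. Probe brightness depends on the probe's sequence, so levels are compared between arrays and never between probes.

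Of the 11 probes, 10 passed the filter on dim signal, with at least 1 for each gene. In all 10 the 2 groups did not overlap, with 3 higher and 7 lower in activated_31C. Among all 22479 probes tested the groups did not overlap in 42.8%, with 19.0% higher and 23.8% lower. Because the genes were picked on this contrast, nothing is read from their count. At an adjusted p under 0.05 (limma, Benjamini-Hochberg over all probes tested) 43.2% of the probes were called, 4326 of them higher and 5385 lower. A call of 2-fold or more upwards was made for 4.04% of the probes and one downwards for 0.810%. Higher probes made up 44.5% of those called. That share was 34.4% with quantile normalization and 29.5% when arrays were centred on their spike-in controls, but 52.3% when they were centred on their medians (5131 higher, 4679 lower). Without control_23C replicates 3 and 4 it was 50.1%.

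The arrays held between 22875 and 23801 probes well above background in activated_31C and between 22030 and 24433 in control_23C. Control_23C replicates 3 and 4 and activated_31C replicate 3 stood apart. On control_23C replicate 3, 237 probes fell short of their 8-array median by over 4 on the log2 scale, and 233 of these were also lower by over 2 on control_23C replicate 4 and 155 on activated_31C replicate 3. None of them (0 of 237) was a probe of the 6 genes. No probe could be named for elav or TrpA1, so the driver and the channel were not checked. Of 16 neuronal marker entries 2 had a named probe, and both were well above background on all 8 arrays. These are the potassium channel genes Sh, with a difference of -0.16 (SE 0.0527, limma adjusted p = 0.0417), and slo, with a difference of -0.10 (SE 0.0585, limma adjusted p = 0.222). The 44 entries for glia, photoreceptors, fat body and blood cells, and muscle and cuticle had no named probe and could not be read, so the part of such cells in the results below was not tested. The male-specific dosage compensation RNAs roX1 and roX2 differed by 0.32 and 0.62 (limma adjusted p = 0.437 and 0.153), each by its probe with the highest mean. The 4 roX1 probes differed by 0.09 to 0.52, and the other roX2 probe differed by -0.67.

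**Figure D1:**
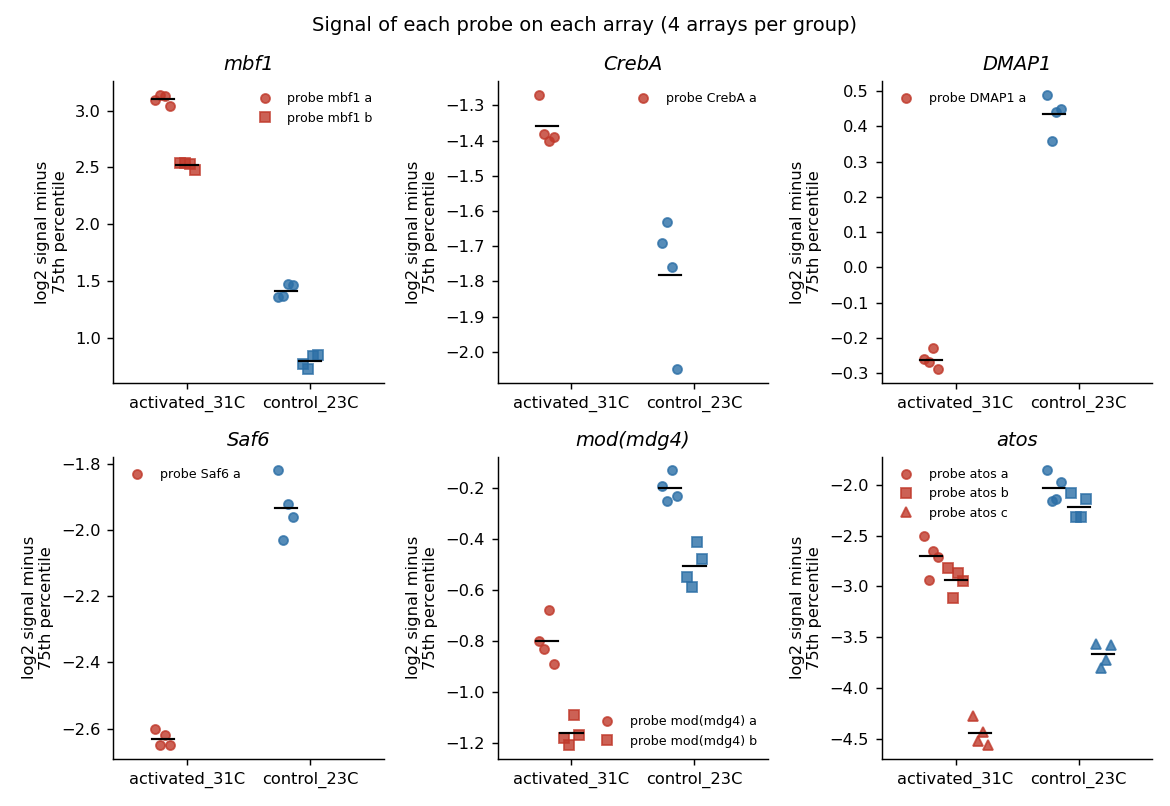
Log2 signal minus the array's 75th percentile for the 10 tested probes of the 6 genes. Each point is 1 array (activated_31C left, control_23C right), the marker shape gives the probe, the bar is the group mean, and each panel has its own y axis. Signal was higher in activated_31C for mbf1 and CrebA and lower for the other 4 genes, with no overlap between the groups in any panel's probes.

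The gene mbf1 encodes multiprotein bridging factor 1, a coactivator that links sequence-specific activators such as Ftz-f1 and Jun with the TATA-binding protein in flies. Its first probe (A_09_P049516) read 3.09, 3.14, 3.13 and 3.04 on activated_31C replicates 1 to 4, against 1.36, 1.37, 1.47 and 1.46 on control_23C replicates 1 to 4. In processed intensity this was 38050 to 45152 units in activated_31C and 13609 to 14750 units in control_23C. All 4 warmed pools were thus above all 4 controls, and the lowest warmed pool lay 1.57 above the highest control. The group means were 3.1 ± 0.0459 in activated_31C and 1.42 ± 0.0577 in control_23C (SD, n = 4 each), a difference of 1.69 (SE 0.0459).

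The second mbf1 probe (A_09_P125725) read 2.54, 2.54, 2.53 and 2.48 on the activated_31C arrays, against 0.77, 0.72, 0.84 and 0.85 on the control_23C arrays. Its difference was 1.73 (SE 0.0446), which was within 0.0442 of that of the first probe. Both probes are designed for the same cDNA clone, GM01267, and are not independent of each other. Of the 260 genes with a symbol that could be tested, mbf1 had the 7th highest difference, and 2.65% of all probes tested had a higher one than its first probe. In the Release 6 gene table mbf1 lies on chromosome arm 3L and overlaps nxf2. The table gives no strand, and whether the probes also read nxf2 was not tested.

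The spread of mbf1 within the groups was small. The pooled SD within groups was 0.0522 for its first probe, against a median of 0.113 over all probes tested, and 8.16% of the probes had a smaller one. For the second probe it was 0.0491. Deviations of the 2 probes from the group mean were small, and differed between the probes by at most 0.0313 on any array. They had opposite signs on activated_31C replicate 1 (-0.013 and 0.017) and the same sign on every other array.

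CrebA encodes a bZIP transcription factor of the CREB3 family, known in flies as an activator of genes of the secretory pathway. The probe that passed the filter (A_09_P196720) read -1.27, -1.38, -1.40 and -1.39 on activated_31C replicates 1 to 4, against -1.69, -1.63, -1.76 and -2.05 on control_23C replicates 1 to 4. The highest warmed pool was replicate 1, and the lowest control was replicate 4. The groups were 0.23 apart at their closest, a narrower gap than in the other tested probes. The means were -1.36 ± 0.0614 in activated_31C and -1.78 ± 0.18 in control_23C (SD, n = 4 each), a difference of 0.42 (SE 0.0922).

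This difference depended on a single control more than those of the other genes did. Without control_23C replicate 4 it was 0.33, and it was 0.30 without control_23C replicates 3 and 4. Leaving out any other single array gave between 0.39 and 0.47. The pooled SD of CrebA within groups, 0.137, was above the median of all probes. CrebA had the 39th highest difference among the 260 genes, and 15.2% of all tested probes had a higher one.

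The other CrebA probe (A_09_P171780), for the same clone SD05937, was well above background on 0 of 4 activated_31C arrays and on 1 of 4 control_23C arrays. It read -6.95, -7.39, -7.16 and -7.40 on the activated_31C arrays, against -7.60, -7.97, -8.15 and -7.12 on the control_23C arrays. The groups overlapped, and these readings are at the background, so no fold is given. CrebA lies on chromosome arm 3L, with no overlapping gene in the gene table.

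DMAP1 encodes the fly homologue of DNA methyltransferase 1-associated protein, a subunit of the Tip60 complex, which acetylates histones and exchanges histone variants. Its probe (A_09_P025796, present in 2 spots per array) read -0.26, -0.27, -0.23 and -0.29 on activated_31C replicates 1 to 4, against 0.49, 0.36, 0.44 and 0.45 on control_23C replicates 1 to 4. In intensity these were 3775 to 4373 units in activated_31C and 6743 to 7542 units in control_23C. The warmed pools lay within 0.06 of each other, and the highest of them was 0.60 below the lowest control. The means were -0.26 ± 0.023 in activated_31C and 0.44 ± 0.0547 in control_23C (SD, n = 4 each), a difference of -0.70 (SE 0.0416). The pooled SD within groups was 0.042, and 3.36% of all probes tested had a smaller one. DMAP1 lies on 2R and overlaps no other gene in the table.

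Saf6 encodes a TAF6-like subunit of SAGA, a coactivator complex that acetylates histones and removes ubiquitin from them. Its probe (A_09_P104725) read -2.60, -2.65, -2.62 and -2.65 on activated_31C replicates 1 to 4, against -1.82, -2.03, -1.92 and -1.96 on control_23C replicates 1 to 4. The 4 warmed pools lay within 0.05 of each other, while the controls spanned 0.22. The means were -2.63 ± 0.0246 in activated_31C and -1.93 ± 0.0904 in control_23C (SD, n = 4 each), a difference of -0.70 (SE 0.0526).

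In the gene table Saf6 lies on 2L and overlaps Dbp21E2, whose name is that of a DEAD-box protein. Dbp21E2 has probes of its own, and it is named here for that overlap. Its probe with the highest mean read -1.48, -1.57, -1.49 and -1.55 in activated_31C, against -1.11, -1.08, -1.03 and -1.10 in control_23C. It fell as well, by 0.44 on the log2 scale (SE 0.0409, limma adjusted p = 0.000107), and its other probe differed by -0.52. Whether the probe of Saf6 reads RNA of Dbp21E2 was not tested.

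The gene mod(mdg4) encodes BTB-domain chromatin proteins, of which one isoform works at insulators together with Su(Hw) and Cp190, and it is known for an unusual range of trans-spliced isoforms. The RefSeq table lists 31 transcripts for it. Its 2 probes belong to the clone GH07769, and which isoforms they read is not given in the files. The first (A_09_P049237) read -0.80, -0.83, -0.68 and -0.89 on activated_31C replicates 1 to 4, against -0.19, -0.25, -0.13 and -0.23 on control_23C replicates 1 to 4. Its means were -0.80 ± 0.0881 in activated_31C and -0.20 ± 0.0536 in control_23C (SD, n = 4 each), a difference of -0.60 (SE 0.056).

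The second mod(mdg4) probe (A_09_P147551) read -1.18, -1.21, -1.09 and -1.17 in activated_31C, against -0.55, -0.59, -0.41 and -0.48 in control_23C, a difference of -0.65 (SE 0.0531). On both probes replicate 3 was the highest array of either group. The groups were 0.43 and 0.50 apart at their closest. The gene lies on 3R and overlaps 6 pre-mod(mdg4) genes in the table, the separate precursors that supply its alternative 3' exons, so the signal is uncertain as to its gene.

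The gene atos (atossa) encodes a nuclear protein known in fly macrophages, where it acts in tissue invasion and in the control of mitochondrial metabolism. It had 3 probes for the clone GH05710, all of them well above background on all 8 arrays. The first (A_09_P179520) read -2.5, -2.94, -2.65 and -2.71 on activated_31C replicates 1 to 4, against -1.86, -2.16, -2.14 and -1.97 on control_23C replicates 1 to 4. Its means were -2.70 ± 0.18 in activated_31C and -2.03 ± 0.14 in control_23C (SD, n = 4 each), a difference of -0.67 (SE 0.108). Its groups were 0.34 apart at their closest.

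The second atos probe (A_09_P160190) read -2.82, -3.11, -2.87 and -2.95 in activated_31C, against -2.08, -2.32, -2.32 and -2.14 in control_23C, a difference of -0.73 (SE 0.084). The third (A_09_P206535) read -4.27, -4.52, -4.43 and -4.56 in activated_31C, against -3.57, -3.80, -3.72 and -3.58 in control_23C, a difference of -0.78 (SE 0.0834). The 3 differences thus lay within 0.111 of each other. The gene lies on 2R and overlaps no other gene in the table.

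**Figure D2:**
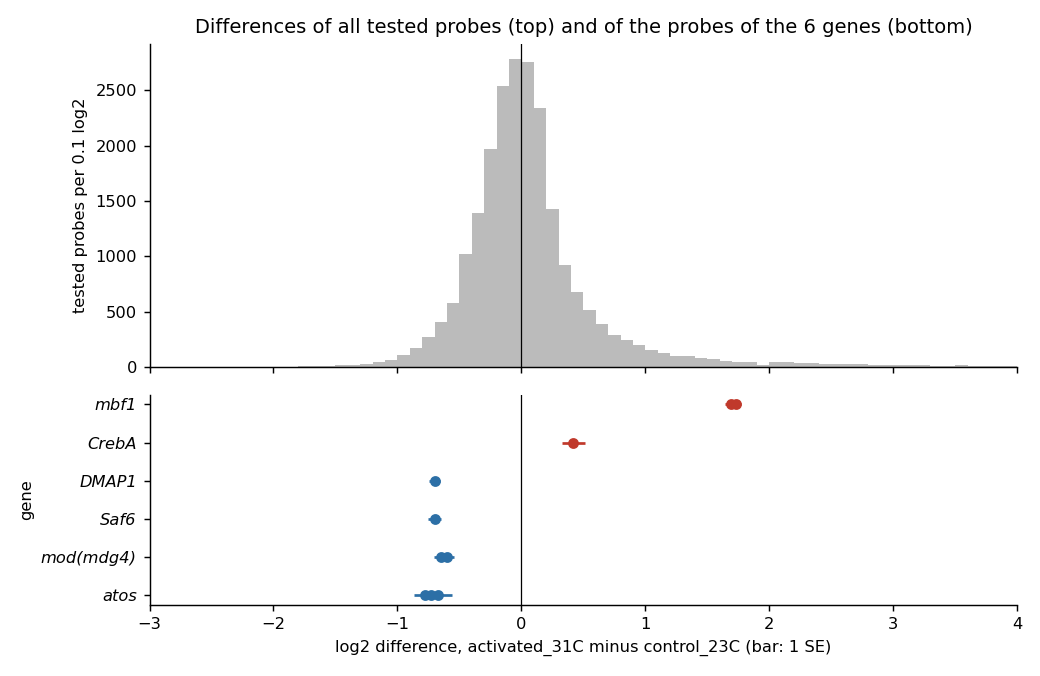
Top: number of tested probes per 0.1 of the log2 difference, activated_31C minus control_23C, for all 22479 probes (the axis ends at -3 and 4, some probes lie above 4, and the first bar also holds any below -3). Bottom: the difference of each tested probe of the 6 genes, 1 row per gene, with 1 SE. The probes of mbf1, at 1.69 and 1.73, lie in the right tail, and those of the 4 lower genes lie between -0.78 and -0.60.

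The 4 lower genes had close differences, from -0.78 to -0.60 over 7 probes. For comparison, 5% of all probes tested lay below -0.61 and 25% below -0.224, and the median of all probes was -0.00746. Among the 260 genes with a symbol, DMAP1 had the 8th lowest difference, Saf6 the 10th, atos the 11th and mod(mdg4) the 12th, each by its probe with the highest mean. The genes were picked on this contrast, so nothing is read from their low ranks. Differences of that size occurred elsewhere: 3.38% of all probes lay below DMAP1 and 5.22% below the first mod(mdg4) probe.

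Variation between pools of the same group is described with no test, since a pick on the group contrast may favour small variation. Among the 10 probes this variation was smallest for DMAP1 and the 2 mbf1 probes. It was largest for the first atos probe, with a pooled SD of 0.165, ahead of CrebA at 0.137 and the other atos probes at 0.124 and 0.122. In 6 of the 10 probes the pooled SD was below the median of all probes tested. The 3 atos probes shared their variation. On activated_31C replicate 1 their deviations from the group mean were 0.117 to 0.202, and on activated_31C replicate 2 they were -0.243 to -0.076. On control_23C replicate 1 the deviations were 0.098 to 0.172, and on control_23C replicate 2 they were -0.134 to -0.103. Replicate 1 was thus the highest array of its group on all 3 atos probes, in both groups. On the third probe control_23C replicate 4 came close to it (0.093), and activated_31C replicate 4 was the lowest of its group (-0.117).

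Over the 10 probes, activated_31C replicate 4 was below its group mean on all 10 and activated_31C replicate 3 was above it on 9 of 10. Control_23C replicate 2 was above its group mean on 1 of 10, that of CrebA. The median deviations of these arrays were small, at -0.0275, 0.0305 and -0.08, and probes of a gene share a target. Control_23C replicate 4, one of the arrays that stood apart, had a deviation of -0.265 for CrebA, the largest of any array in the 10 probes.

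**Figure D3:**
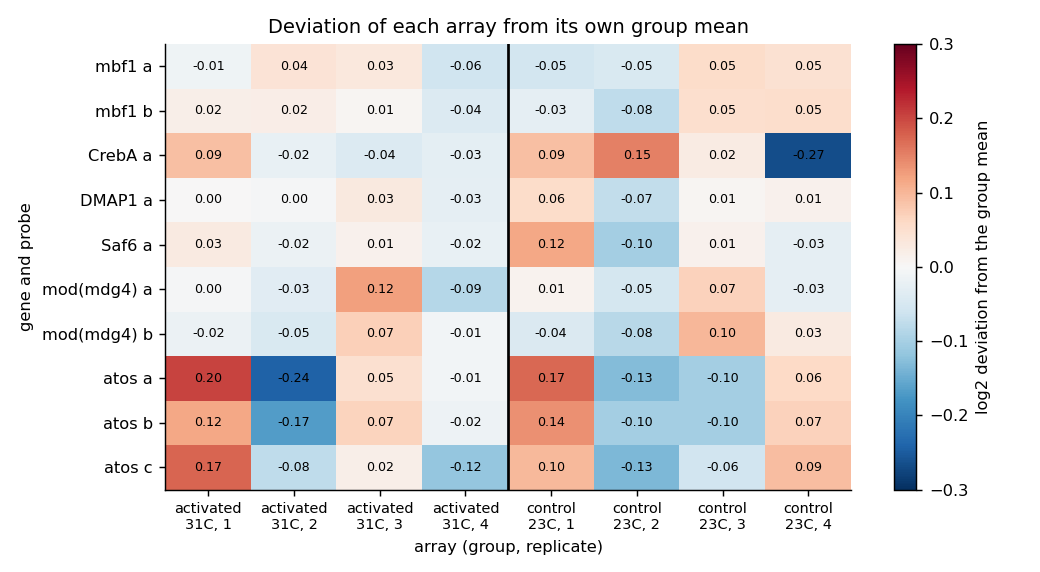
Deviation of each array from the mean of its own group (log2, colour and number), for the 10 tested probes in rows and the 8 arrays in columns, activated_31C left of the line and control_23C right of it. In the 3 atos rows replicate 1 is above and replicate 2 below the group mean in both groups, though replicate 2 is not the lowest in every row. The CrebA probe is low on control_23C replicate 4.

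The sign of the difference was the same in every one of the 10 probes under every one of the 19 or 20 alternatives computed for it. Centring the arrays on spike-in controls lowered the median of all probes to -0.137, and all 10 probes moved down with it. Under that centring the differences were 1.56 and 1.6 for mbf1, 0.29 for CrebA, -0.83 for DMAP1 and Saf6, -0.73 and -0.78 for mod(mdg4), and -0.80 to -0.91 for atos. Taken relative to the median of all probes under each setting, mbf1 stayed between 1.65 and 1.79 and CrebA between 0.29 and 0.51. Relative to the same median DMAP1 lay between -0.71 and -0.62, Saf6 between -0.72 and -0.59, mod(mdg4) between -0.66 and -0.50 and atos between -0.83 and -0.55. Without the 3 arrays that stood apart, the first probes of the genes gave 1.73 for mbf1, 0.31 for CrebA, -0.70 for DMAP1, -0.71 for Saf6, -0.62 for mod(mdg4) and -0.70 for atos.

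**Figure D4:**
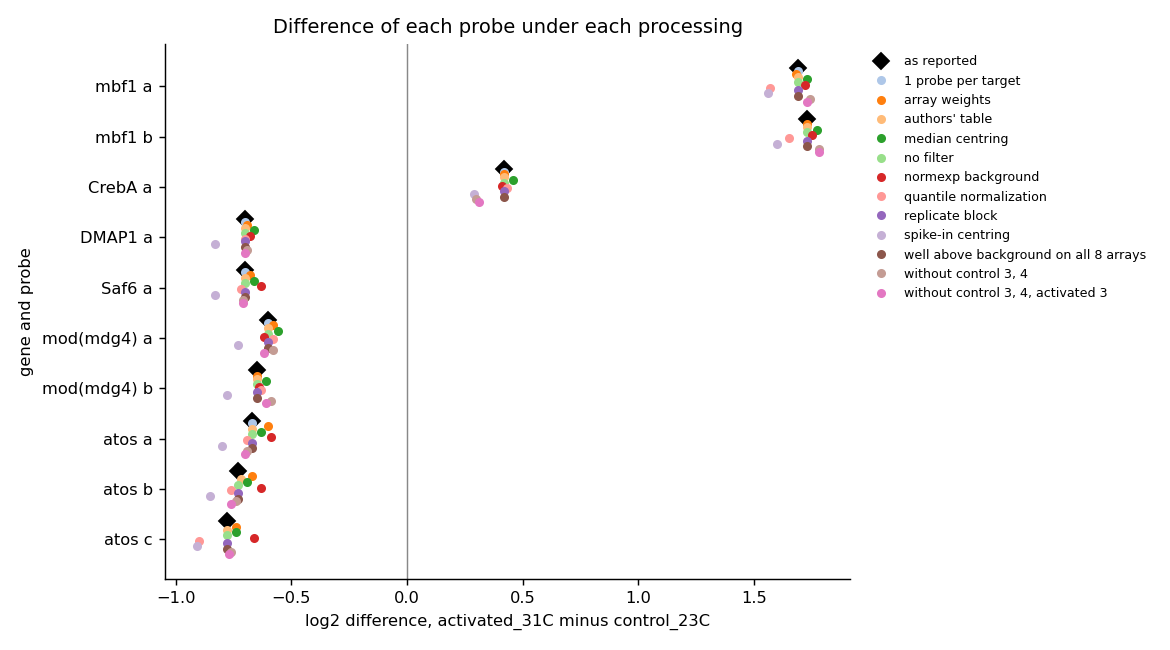
Log2 difference, activated_31C minus control_23C, of each tested probe (rows) as reported (diamond) and under each alternative processing (circles, offset vertically for visibility). No probe crosses 0, and centring on spike-in controls gives the lowest value in each row.

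Genes with the most similar profile over the 8 arrays were searched among 254 other genes with a symbol, each by its probe with the highest mean and with its control_23C mean subtracted. Likeness was the root-mean-square difference between the profiles in log2 units, and it is dominated by the size of the group difference. For mbf1 the nearest were tun, at 0.175 with a difference of 1.49, and Pdk, which encodes pyruvate dehydrogenase kinase, at 0.188 with a difference of 1.44. For CrebA they were retn, at 0.088, and PGRP-LA, of the peptidoglycan recognition protein family, at 0.117 with a difference of 0.38.

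The lower genes shared their nearest profiles. CG33941 and wash, which encodes an actin-nucleation factor of endosomes, were the nearest 2 genes for DMAP1 (0.0763 and 0.0771), for Saf6 (0.0713 and 0.0877) and for atos, in the other order (0.148 and 0.145). For mod(mdg4) the nearest were wash, at 0.0514, and CR43670, at 0.0595. The differences of CG33941, wash and CR43670 were -0.79, -0.60 and -0.58.

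Other genes of transcription and chromatin were taken from lists of 709 entries that hold 5 of the 6 genes. Besides these, 15 entries had a named probe and 14 could be tested. The threshold was passed by 5 of them, 2 upwards and 3 downwards, and missed by 9, beside 43.2% of all probes that passed it. The median difference of the 14 was -0.03, beside -0.00746 over all probes. Every tested entry of the lists is named below, with limma's adjusted p over all probes.

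The partners of the 6 genes could be read only in small part. Of 18 Tip60 complex entries, E(Pc), the subunit that fly genetics knows as Enhancer of Polycomb, was tested besides DMAP1. It read -0.90, -0.86, -0.82 and -0.97 in activated_31C, against -0.85, -0.82, -0.70 and -0.72 in control_23C. The groups overlapped, and the difference was -0.12 (SE 0.0546, limma adjusted p = 0.126). Of 60 insulator and BTB entries, lolal, a small BTB protein that binds the GAGA factor, was tested besides mod(mdg4) and differed by -0.06 (SE 0.0653, limma adjusted p = 0.518). Of 44 entries for secretory pathway genes of the kind CrebA binds, only the signal peptidase subunit gene Spase22-23 was tested. Its difference was 0.07 (SE 0.0622, limma adjusted p = 0.416). No other gene of the SAGA list (24 entries), of the CREB and bZIP list (20), of the activity-regulated factors (16) or of the MBF1 partners (15) had a named probe, and the same held for the Mediator, elongation, Polycomb and atos lists.

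General and chromatin factors outside these complexes could also be read only in small part. Of 55 entries for TFIID and general RNA polymerase II factors 2 were tested. Of 45 entries for chromatin remodellers 1 was tested, and of 77 for histone modifiers and heterochromatin 1. None of these tested genes passed the threshold with all 8 arrays. The RNA polymerase II subunit genes Polr2F and Polr2J both differed by -0.08 (limma adjusted p = 0.386 and 0.176). The chromatin remodeller gene kis differed by 0.00 (SE 0.193, limma adjusted p = 0.994), with controls from -0.52 to 0.37. Hmt4-20, which encodes a methyltransferase for lysine 20 of histone H4, differed by 0.24 (SE 0.111, limma adjusted p = 0.124), with control_23C replicate 1 the lowest array at -1.80. The difference of Hmt4-20 was 0.13 without that array, and 0.39 without control_23C replicates 3 and 4, where it passed the threshold.

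All the calls, 2 higher and 3 lower, came from the list named other sequence-specific factors. That list supplied 7 of the 14 tested genes, and 43.2% of all probes tested were called. The ARID protein gene retn read 0.35, 0.29, 0.27 and 0.12 in activated_31C, against -0.18, -0.18, -0.19 and -0.39 in control_23C, and rose by 0.49 (SE 0.0696, limma adjusted p = 0.000897). The homeodomain factor gene ct (cut) read -0.23, -0.03, -0.06 and -0.08 in activated_31C, against -0.38, -0.40, -0.32 and -0.26 in control_23C, and rose by 0.24 (SE 0.0576, limma adjusted p = 0.011). Both calls were lost after centring on spike-in controls, where the differences were 0.36 for retn and 0.11 for ct.

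The gene of the epidermal factor Grainyhead, grh, read -3.73, -3.91, -3.89 and -3.68 in activated_31C, against -3.49, -3.44, -3.35 and -3.12 in control_23C, and fell by 0.45 (SE 0.0937, limma adjusted p = 0.0059). Its other tested probe differed by -0.55. The remaining 2 calls, named after their values were seen, were falls of the zinc finger gene disco-r by 0.32 (SE 0.0782, limma adjusted p = 0.0126) and of the eye development gene eya by 0.20 (SE 0.0596, limma adjusted p = 0.0311). The call of eya was lost without any one of activated_31C replicates 1, 2 and 4 and control_23C replicates 2, 3 and 4 (-0.21 to -0.16). It was also lost after centring on spike-in controls (-0.33), with no filter and with the replicate block (both -0.20). Without both control_23C replicates 3 and 4 the calls of eya (-0.13) and disco-r (-0.31) were lost. Without the 3 arrays that stood apart the calls of ct (0.28), grh (-0.31), disco-r (-0.32) and eya (-0.16) were all lost, and that of retn, at 0.43, was the 1 higher call among the 14 genes. Of those that did not pass, pros differed by 0.02 and shn by 0.34 (limma adjusted p = 0.817 and 0.577). After quantile normalization pros differed by -0.20 and passed the threshold as lower. The value of shn was 0.0037 without control_23C replicate 1, 0.77 without control_23C replicate 3 and 0.19 without control_23C replicate 4. Dif, an NF-kappaB family gene, was not well above background on any array.

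Another 8 transcription factor genes were added once the probe names were paired, of which 7 were tested. Calls were made for 4 of the 7, 1 upwards and 3 downwards, beside 43.2% of all probes tested. The differences called were no larger than 0.30 in size. The zinc finger homeodomain gene zfh1 rose by 0.24 (SE 0.0665, limma adjusted p = 0.0218). Coop, named for a co-repressor of Pan, fell by 0.30 (SE 0.0923, limma adjusted p = 0.0326), although its groups overlapped. Opbp fell by 0.20 (SE 0.059, limma adjusted p = 0.0262) and spen, a large RNA-binding co-regulator, by 0.11 (SE 0.0395, limma adjusted p = 0.049). Each of these 4 calls was lost when single arrays were left out: that of zfh1 without any of 3 arrays (activated_31C replicates 2 and 3, control_23C replicate 2), with differences of 0.20 to 0.23, and that of spen without any of the 8, at -0.13 to -0.10. The call of zfh1 was also lost after centring on spike-in controls (0.11), with normexp background correction (0.22) and with the replicate block (0.24). That of spen was also lost under 10 other alternatives, such as median centring (-0.0749) and spike-in centring (-0.24). The call of Opbp was lost without activated_31C replicate 1 or 3 or control_23C replicate 2, 3 or 4 (-0.20 to -0.17). That of Coop was lost without activated_31C replicate 1, 2 or 4 or control_23C replicate 1, 3 or 4 (-0.30 to -0.25). Opbp also lost its call with median centring (-0.16) and no filter (-0.20). Coop lost its call with array weights (-0.24), normexp (-0.29) and no filter (-0.30). Without both control_23C replicates 3 and 4 the calls of Opbp (-0.16), Coop (-0.23) and spen (-0.12) were lost. Without the 3 arrays that stood apart all 4 calls were lost. The genes otp, jim and Cf2 did not pass, with differences of 0.14, 0.10 and -0.15. Cf2 passed as lower with normexp background correction (-0.19) and without activated_31C replicate 2 (-0.20). The difference of otp was 0.0254 without activated_31C replicate 1 and 0.0869 without control_23C replicate 4, and that of jim was 0.0586 without control_23C replicate 1. The gene kn was not well above background on any array.

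**Figure D5:**
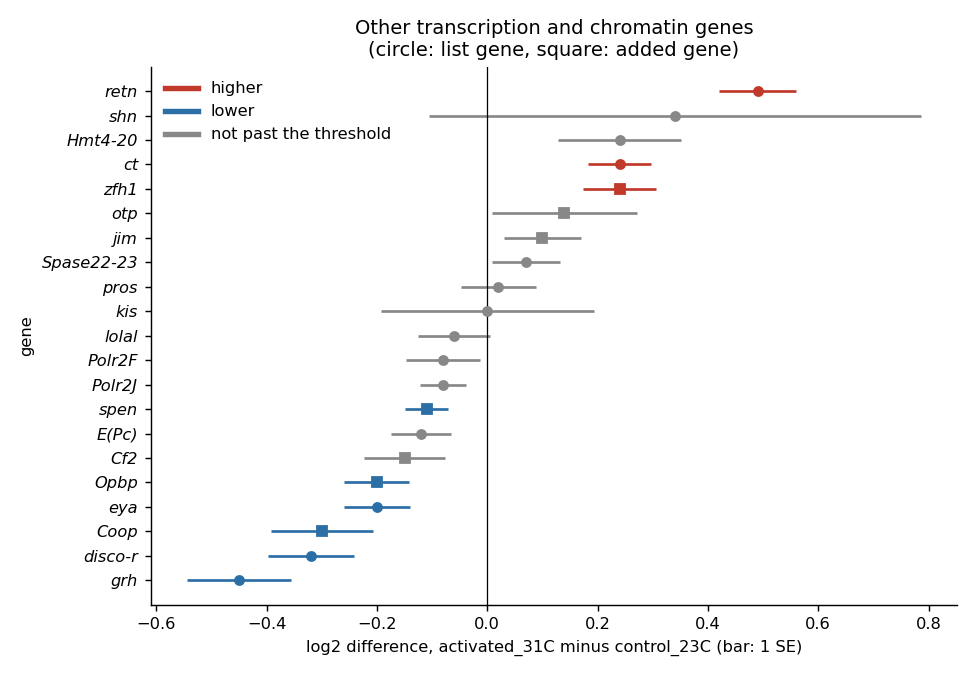
Log2 difference, activated_31C minus control_23C, with 1 SE, of the 14 tested list genes (circles) and 7 added genes (squares), coloured by the limma call at an adjusted p under 0.05. The largest rise is that of retn at 0.49 and the largest fall that of grh at -0.45.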

How the data were processed

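The 8 arrays, 4 per group, were grouped by sample title, and the labels describe samples of a condition as independent. Spot intensity in the scanner files was obtained by the authors with Agilent Feature Extraction, version 10.7.3.1 per the file headers and 9.1.3.1 per the submitters' processing notes. Background was subtracted and each array detrended there, and other columns hold flags, per the file headers. A deposited table of log2 values by the authors, with steps not given here, was an alternative. It matched the log2 deviations of the scanner values from each probe's median, with correlations of 0.994 to 1 over probes and column medians of -0.0621 to 0.0378. These give its direction and centring. Its scale is seen in the differences, which were 1.69 for the first mbf1 probe and -0.70 for DMAP1, the same as from the scanner values.

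Control spots and spots with an outlier flag were left out, spots of a probe averaged, and each array's 75th percentile (4616 to 5357 intensity units) subtracted after log2. A probe was tested when well above background on all 4 arrays of a group (at least 50% of its spots, where there were several) and measured on at least 6 arrays. Limma 3.58.1 in R 4.3.3 (lmFit, eBayes, two-sided) compared the groups, and SE is its moderated standard error. Steps were tested on simulated data. With 4 arrays per group, their number limits the precision. Probes of the 6 genes were unsaturated on all 8 arrays.

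Probes were named through RefSeq's table of genes (assembly Release 6 plus ISO1 MT), which paired 416 probes with 1 gene, 2 with several and 31744 with none. It was used for names, chromosome arms and overlaps, with no coordinates, since the array design is on dm3.

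The members and lists were chosen with earlier results of these data known. Named genes were all probes of the 6 genes, up to 3 genes of each list, taken by adjusted p (by size of difference where none passed), and the 2 nearest profiles per member. Other list genes are named to account for every tested entry. The planned normexp correction used the median signal, as the files give no mean signal. Alternatives were normexp background correction (offset 50), quantile normalization, median and spike-in centring, the authors' table, no filter, a stricter filter, a replicate block, array weights, 1 probe per target, each array left out, and, chosen after seeing the data, the arrays that stood apart left out. Probe, promoter and protein sequences were not used here.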

Additional observations from a re-analysis of the deposited data

Results flagged for a closer look

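The check covered only the 10 tested probes of the 6 genes, the 14 tested list genes and the 7 tested added genes. In 2 of these 62 groups of 4 arrays, 1 array stood far off the remaining 3, against 3.1 that chance gives at 1 in 20. The gap divided by the whole range of the group was 0.869 for CrebA in activated_31C, with replicate 1 at the top (-1.27). For retn in control_23C, with replicate 4 at the bottom (-0.39), the same ratio was 0.92. Control_23C replicate 4 was the lowest control for both CrebA and retn, and without it the difference of CrebA was 0.33.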

How the results depend on the processing

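For the 10 tested probes of the 6 genes, 182 of 196 alternative values moved by less than the SD between replicates, 14 moved by more and none changed sign. The values beyond the SD came from spike-in centring, quantile normalization, normexp and the sets of several arrays left out. Counts over all probes (4326 higher, 5385 lower and 1091 called with a change of 2-fold or more) moved more. With 1 array left out there were 3675 to 4036 higher and 4470 to 5273 lower. Spike-in centring gave 1983 higher, and normexp background correction gave 641 with a change of 2-fold or more. Without control_23C replicates 3 and 4, 3572 were lower, and with activated_31C replicate 3 left out as well, 2743 were higher and 2673 lower. Of the 14 list genes (2 higher, 3 lower), spike-in centring called 0 higher (limma, 1 at an unadjusted p under 0.05). Without control_23C replicates 3 and 4, 3 were higher (Hmt4-20 among them, at 0.39) and 1 was lower, and without all 3 arrays 1 was higher and 0 were lower (limma, 1 lower at an unadjusted p under 0.05). The cause was not tested. Differences of 4 genes, all between 0 and 0.10 as reported, reversed. Spase22-23 (-0.0616), jim (-0.0326), pros (-0.11) and kis (-0.13) reversed after spike-in centring, pros also after quantile normalization, where it passed the threshold (-0.20). The value for kis was -0.0895 with array weights and -0.0282 with normexp, and with 1 array left out it ran from -0.20 to 0.0999 (below 0 without control_23C replicate 1 or activated_31C replicate 2, 3 or 4). It was 0.24 without the 3 arrays. That of pros ran from -0.0326 (without activated_31C replicate 2) to 0.0616 with 1 array left out, and was -0.00209 without the 3 arrays.

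Replicate numbers 1 to 4 occur in both groups. Deviations of same-numbered arrays from their group means correlated at 0.206, 0.0928, 0.649 and -0.282 over probes, and not every array correlated best with its own number, so the numbers were not taken as pairs. With the replicate block, 3918 probes were higher, 4822 were lower and 1085 changed by 2-fold or more, and of the list genes 2 were higher and 2 lower.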
